A study of Mus musculus with 12 samples.

Results

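The 10 core genes of the circadian clock were followed in the left ventricle of pressure-overloaded and sham-operated mice with and without dantrolene. They were taken as every row of the deposited count and FPKM tables whose symbol was Arntl, Clock, Npas2, Cry1, Cry2, Per1, Per2, Per3, Nr1d1 or Nr1d2. All 10 were found among the 25319 genes of the count table, and all 10 passed the filter on low counts. Sequencing covered 12 male C57BL/6 mice, 3 in each of 4 groups: TAC with dantrolene, TAC control, sham with dantrolene and sham control. Transverse aortic constriction (TAC) narrows the aortic arch so that the left ventricle pumps against a raised pressure, and the sham operation left out the ligation. Surgery was done at 8 weeks of age and the heart was taken at 12 weeks, and the dantrolene mice received 30 mg/kg per day by mouth for 4 weeks. Dantrolene blocks ryanodine receptors, through which calcium leaves the sarcoplasmic reticulum of muscle cells. All mice were anaesthetised for the operation and all hearts were arrested with potassium chloride. The hour of the day at which each mouse was sampled is not given in the sources used here, so time of day and group cannot be told apart for these genes.

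The clock is a feedback loop of transcription that runs in nearly every cell, cardiomyocytes included, with a period of about a day. ARNTL (also called BMAL1) pairs with CLOCK or its relative NPAS2, binds E-boxes and switches on the Per and Cry genes, whose proteins return to the nucleus and inhibit the pair. A second loop runs through the nuclear receptors NR1D1 and NR1D2 (REV-ERB alpha and beta), which the pair also switches on and which repress Arntl through elements that the activating ROR receptors share. In mouse tissues Arntl therefore peaks at about the opposite time of day from Nr1d1, Dbp and the Per genes, and a single sample shows one phase of this cycle.

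The promoters show where the letters of these elements lie. The RefSeq promoter table (GRCm38.p6, 250 bases before to 50 after each start) held 13 starts for 9 of the 10 genes, all except Per2. They were searched on both strands for CACGTG (E-box), AGGTCA (the core shared by ROR and REV-ERB elements) and TTATGTAA (D-box, the element of DBP, TEF and HLF), and no match overlapped another. A match is a run of letters, not a measured site. CACGTG was found for 2 of the genes (Cry1 and Per1), against 8.09% of the 27025 genes in the table (7.15% of its 32851 promoters). AGGTCA was found for 4 of them (Arntl, Clock, Per1 and Nr1d2), against 18.1% of genes (16.3% of promoters), and TTATGTAA for 1 of them (Per3), against 1.11% of genes (0.938% of promoters). The windows of Arntl, Per1, Cry1 and Per3 are shown so that each element can be seen at least once. They are written 5′ to 3′ on the strand of the gene, and capitals mark the matches. The Arntl window is chr7:113207261-113207560 (plus strand), with AGGTCA from position 32, counting the first transcribed base as 1.
Arntl: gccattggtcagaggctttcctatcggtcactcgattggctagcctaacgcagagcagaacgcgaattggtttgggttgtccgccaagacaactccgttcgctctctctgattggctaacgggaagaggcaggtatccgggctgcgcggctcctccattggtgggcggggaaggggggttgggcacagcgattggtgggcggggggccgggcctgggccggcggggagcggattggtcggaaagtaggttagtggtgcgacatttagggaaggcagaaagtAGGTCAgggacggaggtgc
The Per1 window is chr11:69098699-69098998 (plus strand), with CACGTG beginning 166 bases before the start and AGGTCA on the other strand, printed as TGACCT, 137 bases before it.
Per1: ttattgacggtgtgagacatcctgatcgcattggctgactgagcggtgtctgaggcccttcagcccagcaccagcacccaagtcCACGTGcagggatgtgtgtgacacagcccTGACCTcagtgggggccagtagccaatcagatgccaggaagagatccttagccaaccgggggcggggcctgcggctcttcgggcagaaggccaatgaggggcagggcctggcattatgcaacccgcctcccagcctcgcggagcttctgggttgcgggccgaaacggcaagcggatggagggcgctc
The Cry1 window is chr10:85185005-85185304 (minus strand), with CACGTG 60 bases before the start.
Cry1: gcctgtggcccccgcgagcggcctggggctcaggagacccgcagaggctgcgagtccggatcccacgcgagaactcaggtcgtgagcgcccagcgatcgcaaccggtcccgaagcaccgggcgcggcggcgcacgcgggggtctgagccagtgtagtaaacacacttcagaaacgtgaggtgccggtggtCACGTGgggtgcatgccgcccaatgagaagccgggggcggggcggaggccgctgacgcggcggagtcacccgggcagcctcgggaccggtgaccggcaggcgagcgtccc
The Per3 window is chr4:151044616-151044915 (minus strand), with TTATGTAA at 205 and again at 158 bases before the start.
Per3: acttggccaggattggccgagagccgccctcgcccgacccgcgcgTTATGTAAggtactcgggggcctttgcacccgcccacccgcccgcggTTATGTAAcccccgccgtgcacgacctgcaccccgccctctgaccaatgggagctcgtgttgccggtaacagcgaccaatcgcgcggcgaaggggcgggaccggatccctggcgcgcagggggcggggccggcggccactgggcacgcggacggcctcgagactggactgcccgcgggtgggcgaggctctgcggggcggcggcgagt

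Libraries held 25766378 to 38363106 counts, and within each group every pair of libraries differed by more than counting noise. The tissue label was checked against marker genes. The 8 ventricular cardiomyocyte markers summed to 62448.0 to 90226.1 CPM per library. Of the 4 atrial markers 3 were in the count table and summed to at most 13.2 CPM, and the atrial gene Bmp10 was absent from it. On the first principal component, which held 41.7% of the variance, 4 libraries stood apart: TAC dantrolene 1 (76.5), TAC control 1 (85.6), sham dantrolene 3 (77.9) and sham control 3 (34.7), against -50.7 to -22.7 for the other 8. There was 1 such library in each group. They were picked from these same counts, so adjusted p from fits without them do not hold their stated error rate. Many fold changes and correlations below are given with and without these 4 libraries, while spreads within groups are given with them. Mitochondrial genes took 1.71% to 22.4% of counts, with the lowest share in TAC dantrolene 2. Fibroblast markers summed to 216.6 to 513.3 CPM in TAC dantrolene mice, 245.2 to 964.6 CPM in TAC control mice, 337.0 to 458.3 CPM in sham dantrolene mice and 244.3 to 366.6 CPM in sham control mice. The part of these values in the results on clock genes was not tested. In bulk tissue, fewer cells that express a gene and less of its RNA per cell cannot be told apart.

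On the scale of deposited FPKM, which divides by gene length, Nr1d1 was the most abundant clock gene at 20.1 ± 11.3 (mean ± SD over 12 libraries). Per1 (8.70 ± 6.28) and Cry2 (8.36 ± 3.55) came next, and Per1 was above Cry2 in only 4 of 12 libraries, so their order was not settled. Cry1 (3.64 ± 1.75), Nr1d2 (2.31 ± 1.89), Per2 (1.63 ± 0.837) and Per3 (1.09 ± 0.602) followed. Per2 was above Per3 in 12 of 12 libraries, while Cry1 was above Nr1d2 in 9 of 12 and Nr1d2 above Per2 in 9 of 12. By their means over all libraries the activator genes were lowest, with Arntl at 0.726 ± 0.852, Clock at 0.279 ± 0.143 and Npas2 at 0.232 ± 0.0896 FPKM. Per3 was above Arntl in 9 of 12 libraries, Arntl above Clock in 8 of 12 and Clock above Npas2 in 5 of 12. In TAC dantrolene Arntl averaged 1.57 FPKM, above Per3 at 1.02 FPKM, and in TAC dantrolene 1 and 2 and TAC control 1 Arntl was above Per2, Per3 and Nr1d2. The genes also differed in how far mice of a group spread. The biological coefficient of variation, the spread left after counting noise, was 0.769 for Arntl (percentile 95.1 of all genes tested), 0.693 for Nr1d2 (percentile 92.9) and 0.311 for Cry2 (percentile 22.7), beside a median of 0.393 over all genes. These values include the 4 libraries apart. Over all 12 libraries the highest CPM was 103.1 times the lowest for Arntl, 11.3 times for Nr1d2 and 2.52 times for Cry2. Over the other 8 libraries it was 10.4, 5.9 and 2.35 times.

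**Figure D1:**
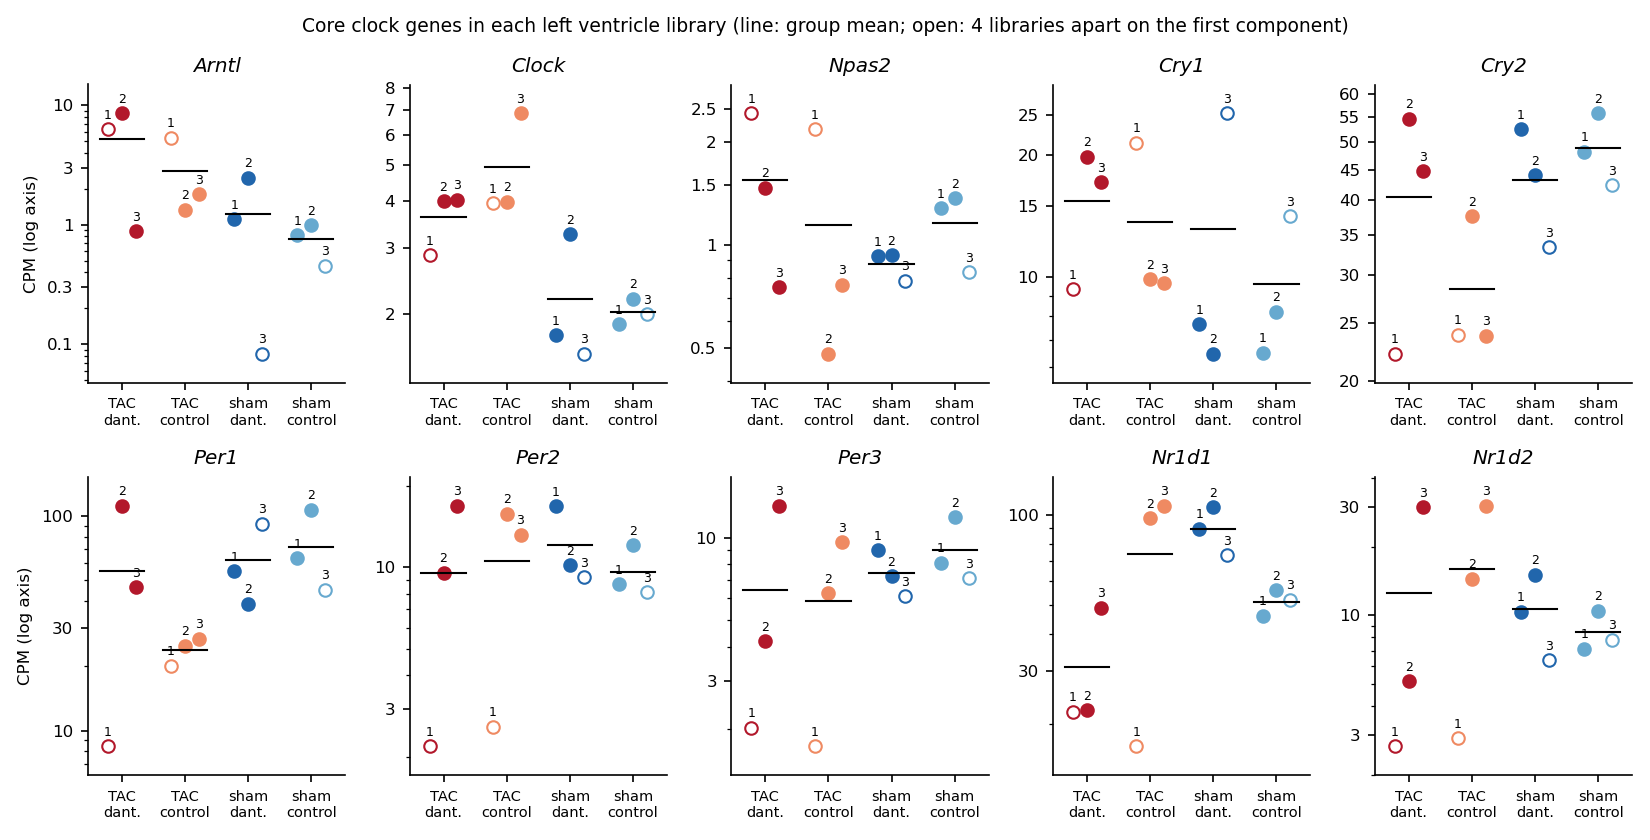
Level of each core clock gene in CPM (TMM-scaled counts, log axis) in the 12 left ventricle libraries, by group, with mouse numbers, a line at the group mean, and open points for the 4 libraries that stood apart. Arntl spanned 0.0827 to 8.52 CPM, while Cry2 stayed between 22.2 and 55.8 CPM.

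Arntl, the activator without which the loop stops, had the widest range of the 10 genes. It lies at chr7:113207465-113314126 (ENSMUSG00000055116.7). Its level, in CPM (reads of the gene scaled by TMM to a common library total), was 6.28, 8.52 and 0.877 in TAC dantrolene mice 1 to 3 and 5.33, 1.33 and 1.79 in TAC control mice 1 to 3. It was 1.11, 2.46 and 0.0827 in sham dantrolene mice and 0.818, 0.986 and 0.453 in sham control mice. TAC dantrolene 1 and 2 and TAC control 1 were above every other library, and sham dantrolene 3, with 2 reads, was the lowest. Every TAC control library was above every sham control library, whereas TAC dantrolene and sham dantrolene overlapped. The log2 fold change was 1.88 ± 0.97 (SE) for TAC control over sham control and 1.99 ± 0.68 for TAC over sham averaged over drug. Neither passed the edgeR quasi-likelihood test after Benjamini-Hochberg adjustment (adjusted p = 0.656 and 0.663), and without the 4 libraries the values were 0.77 and 1.05. Without TAC control 1 alone the first was 1.04. With dantrolene in TAC hearts the log2 fold change of Arntl was 0.90 ± 0.92 over TAC control (adjusted p = 1), with 1.58 without the 4 libraries and 0.35 without TAC dantrolene 2.

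Clock, which encodes the partner of ARNTL, was measured at 2.87, 4.0 and 4.04 CPM in TAC dantrolene mice, 3.95, 3.99 and 6.85 CPM in TAC control mice, 1.76, 3.27 and 1.57 CPM in sham dantrolene mice and 1.88, 2.20 and 2.00 CPM in sham control mice. All TAC control values lay above all sham control values, and with dantrolene the surgery arms overlapped through sham dantrolene 2. Among the 10 genes Clock had the smallest p for TAC control over sham control and for TAC over sham averaged over drug in the fit of 12 libraries. Its log2 fold change was 1.28 ± 0.39 for TAC control over sham control (edgeR unadjusted p = 0.00633, adjusted p = 0.494) and 1.00 ± 0.28 averaged over drug (unadjusted p = 0.00318, adjusted p = 0.56). Without the 4 libraries the first of these was 1.39. The gene lies at chr5:76209868-76304792 (ENSMUSG00000029238.9).

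Npas2, which can stand in for CLOCK, was measured at 2.43, 1.47 and 0.752 CPM in TAC dantrolene mice, 2.18, 0.479 and 0.764 CPM in TAC control mice, 0.927, 0.933 and 0.785 CPM in sham dantrolene mice and 1.28, 1.37 and 0.831 CPM in sham control mice. Its highest levels were in TAC dantrolene 1 and TAC control 1, both among the 4 libraries apart, and the groups overlapped. For TAC control over sham control its log2 fold change was -0.05 ± 0.57 with all libraries and -1.11 without the 4. It had 18 to 70 reads per library. It lies at chr1:39193731-39363236 (ENSMUSG00000026077.13).

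Per1, the Period gene that also responds fast to outside signals, was measured at 8.46, 111.4 and 46.4 CPM in TAC dantrolene mice, 20.0, 24.8 and 26.7 CPM in TAC control mice, 55.3, 39.0 and 91.8 CPM in sham dantrolene mice and 63.5, 106.4 and 45.2 CPM in sham control mice. The TAC control mice were alike, with a highest value 1.33 times the lowest, and all lay below all sham control mice. The TAC dantrolene mice held both the lowest and the highest value of the study, 13.2 times apart. The lowest was TAC dantrolene 1, among the 4 libraries apart, and mice 2 and 3 were at 111.4 and 46.4 CPM. For TAC control over sham control the log2 fold change was -1.59 ± 0.67 (edgeR unadjusted p = 0.0346, adjusted p = 0.599). Dantrolene in TAC hearts gave 1.22 ± 0.66 over TAC control (adjusted p = 1), and 0.21 without TAC dantrolene 2. Without the 4 libraries, with 2 mice a group, both passed: -1.74 (adjusted p = 0.0367) and 1.61 (adjusted p = 0.0467), where edgeR called 3.21% and 3.17% of all genes. The 4 libraries were picked from these same counts, so these adjusted p do not hold their stated error rate. Per1 lies at chr11:69095217-69109960 (ENSMUSG00000020893.15).

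Per2 was measured at 2.19, 9.55 and 16.9 CPM in TAC dantrolene mice, 2.58, 15.8 and 13.2 CPM in TAC control mice, 16.8, 10.2 and 9.22 CPM in sham dantrolene mice and 8.67, 12.1 and 8.09 CPM in sham control mice. Per3 was measured at 2.02, 4.19 and 13.1 CPM in TAC dantrolene mice, 1.73, 6.28 and 9.64 CPM in TAC control mice, 9.02, 7.22 and 6.12 CPM in sham dantrolene mice and 8.10, 11.9 and 7.10 CPM in sham control mice. For both genes the lowest 2 libraries were TAC dantrolene 1 and TAC control 1, and the range over both TAC groups enclosed every sham library. Without these 2 libraries the lowest TAC value was 9.55 CPM for Per2, which no longer enclosed the sham libraries. For Per3 it was 4.19 CPM, which still did. Within TAC control the highest Per2 value was 6.15 times the lowest, which rests on TAC control 1, against 1.50 times within sham control. The log2 fold change for TAC control over sham control was 0.13 ± 0.67 for Per2 and -0.61 ± 0.65 for Per3, and without the 4 libraries 0.46 and -0.35. Per2 (chr1:91415982-91459324, ENSMUSG00000055866.9) encodes a main repressor of the loop. Per3 (chr4:151003652-151044665, ENSMUSG00000028957.10) is the Period gene the mouse loop depends on least. The Per3 gene lies inside the span of Camta1 on the same strand, so reads of the 2 genes could have been divided in more than 1 way. Camta1 had 86.0, 24.2 and 45.5 CPM in TAC dantrolene mice, 78.0, 61.2 and 58.5 CPM in TAC control mice, 45.3, 48.2 and 66.8 CPM in sham dantrolene mice and 45.9, 44.0 and 46.9 CPM in sham control mice. Camta1 was highest in the libraries where Per3 was lowest, TAC dantrolene 1 and TAC control 1, both among the 4 libraries apart. TAC dantrolene 2, with the next lowest Per3 (4.19 CPM), had the lowest Camta1 of all libraries (24.2 CPM). How reads were divided between the 2 genes was not tested.

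Cry1, the stronger repressor of the Cryptochrome pair, was measured at 9.35, 19.8 and 17.1 CPM in TAC dantrolene mice, 21.4, 9.88 and 9.67 CPM in TAC control mice, 7.66, 6.47 and 25.3 CPM in sham dantrolene mice and 6.52, 8.21 and 14.1 CPM in sham control mice. Its highest level in 3 of the 4 groups was in the library apart from the rest, and the groups overlapped. Its log2 fold change was 0.50 ± 0.54 for TAC control over sham control and 0.18 ± 0.54 for TAC dantrolene over TAC control, and without the 4 libraries 0.39 and 0.92. Cry2, its weaker relative, was measured at 22.2, 54.7 and 44.7 CPM in TAC dantrolene mice, 23.9, 37.6 and 23.8 CPM in TAC control mice, 52.5, 44.0 and 33.4 CPM in sham dantrolene mice and 48.2, 55.8 and 42.4 CPM in sham control mice. All Cry2 values of TAC control lay below all of sham control, and its log2 fold change was -0.78 ± 0.34 (edgeR unadjusted p = 0.0381, adjusted p = 0.602) and -0.78 without the 4 libraries. Cry1 lies at chr10:85131700-85185064 (ENSMUSG00000020038.9) and Cry2 at chr2:92403646-92434043 (ENSMUSG00000068742.9).

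Nr1d1, the main REV-ERB repressor of Arntl, had the smallest p of the 10 genes for the interaction, the test of whether the drug difference is the same in TAC and sham hearts. It was measured at 22.0, 22.3 and 48.9 CPM in TAC dantrolene mice, 16.9, 97.5 and 107.2 CPM in TAC control mice, 89.9, 106.1 and 73.4 CPM in sham dantrolene mice and 46.0, 55.9 and 52.0 CPM in sham control mice. All sham dantrolene values lay above all sham control values, and all TAC dantrolene values lay below all sham dantrolene values, while TAC dantrolene overlapped TAC control only through TAC control 1. The log2 fold change was -1.25 ± 0.54 for TAC dantrolene over TAC control (edgeR unadjusted p = 0.0371, adjusted p = 1, and unadjusted p = 0.0518 with the replicate block in the groups compared) and 0.81 ± 0.53 for sham dantrolene over sham control (unadjusted p = 0.154, adjusted p = 1). The interaction, the difference of these values, was -2.06 ± 0.75 (unadjusted p = 0.0178, adjusted p = 1). Without the 4 libraries Nr1d1 passed edgeR for TAC dantrolene over TAC control at -1.51 (adjusted p = 0.0398), as did 3.17% of all genes. Its interaction in that fit was -2.47 (adjusted p = 0.0761, where 0.0465% of all genes passed). With limma voom and sample quality weights the interaction passed at -2.54 (adjusted p = 0.0391), as did 0.454% of all genes. That fit gave TAC control mice 1 to 3 weights of 0.233, 6.56 and 0.676, so mouse 2 counted most in that group.

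Nr1d1 lies at chr11:98767932-98775333 (ENSMUSG00000020889.11), and its 3′ end overlaps Thra, the thyroid hormone receptor alpha gene, by 1075 bases on the opposite strand. The strand setting of the authors' counting is not given in the sources used here, so reads of this overlap may be shared. Thra was measured at 162.5, 100.3 and 70.0 CPM in TAC dantrolene mice, 147.0, 61.4 and 47.0 CPM in TAC control mice, 103.4, 97.1 and 98.0 CPM in sham dantrolene mice and 82.1, 95.4 and 109.2 CPM in sham control mice. In the TAC arm it was high where Nr1d1 was low. Nr1d2 (chr14:18204054-18239127, ENSMUSG00000021775.10), the second REV-ERB, was measured at 2.67, 5.13 and 29.8 CPM in TAC dantrolene mice, 2.89, 14.5 and 30.3 CPM in TAC control mice, 10.4, 15.1 and 6.37 CPM in sham dantrolene mice and 7.15, 10.5 and 7.82 CPM in sham control mice. The TAC groups spread over 11.2 and 10.5 times and enclosed every sham value, against 2.37 times in sham dantrolene and 1.47 times in sham control. The lowest value of each TAC group was in a library apart, TAC dantrolene 1 and TAC control 1. Without TAC control 1 the TAC control mice were at 14.5 and 30.3 CPM and did not enclose the sham values. Without TAC dantrolene 1 the TAC dantrolene mice, at 5.13 and 29.8 CPM, still did. Its log2 fold change for TAC control over sham control was 0.90 ± 0.85, with 1.32 without the 4 libraries and 0.035 without TAC control 3.

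**Figure D2:**
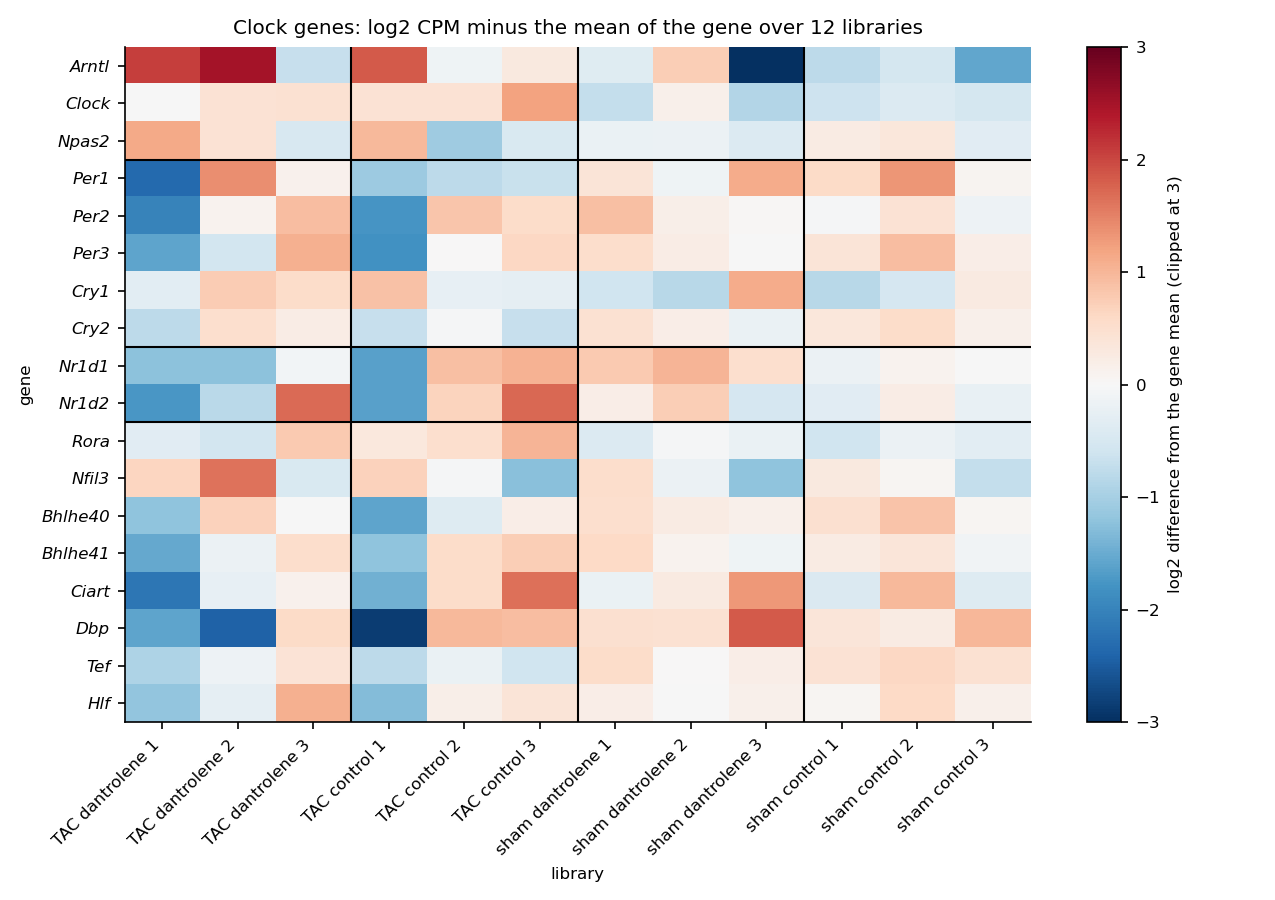
Log2 CPM of each clock gene and of other loop and output factors minus the mean of that gene over the 12 libraries, with libraries in columns by group and colours clipped at 3. TAC dantrolene 1 and TAC control 1 are red for Arntl and Npas2 and blue for the Per genes, Nr1d1, Nr1d2, Dbp and Hlf, and TAC dantrolene 2 shares the red of Arntl and the blue of Nr1d1 and Dbp.

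Read library by library, some TAC hearts had high Arntl together with low Nr1d1 and Dbp. TAC dantrolene 1, TAC dantrolene 2 and TAC control 1, noticed after their values were seen, had Arntl of 6.28, 8.52 and 5.33 CPM with Nr1d1 of 22.0, 22.3 and 16.9 CPM. In the other 9 libraries Arntl was at most 2.46 CPM and Nr1d1 at least 46.0 CPM. Dbp, an output gene switched on by ARNTL and CLOCK, was at 31.6, 17.5 and 13.1 CPM in those 3 libraries and at 111.7 CPM or more in the other 9. The Per genes were low in TAC dantrolene 1 and TAC control 1 but not throughout in TAC dantrolene 2, whose Per1 of 111.4 CPM was the highest of all libraries. As a single number per library, the mean log2 CPM of Arntl, Clock and Npas2 minus that of Per1, Per2, Per3, Nr1d1 and Nr1d2 was -0.40, -1.89 and -4.22 in TAC dantrolene mice 1 to 3 and -0.58, -3.81 and -3.55 in TAC control mice 1 to 3. It was -4.22, -3.41 and -5.02 in sham dantrolene mice and -3.70, -4.04 and -4.03 in sham control mice. The SD was 1.93 in TAC dantrolene and 1.80 in TAC control, against 0.805 in sham dantrolene and 0.192 in sham control. In TAC control the spread rests on mouse 1, since mice 2 and 3 were at -3.81 and -3.55. TAC dantrolene 1 and TAC control 1 were also apart on the first principal component. TAC dantrolene 2 was not (-43.8), and sham dantrolene 3 and sham control 3, which were, did not show the pattern.

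**Figure D3:**
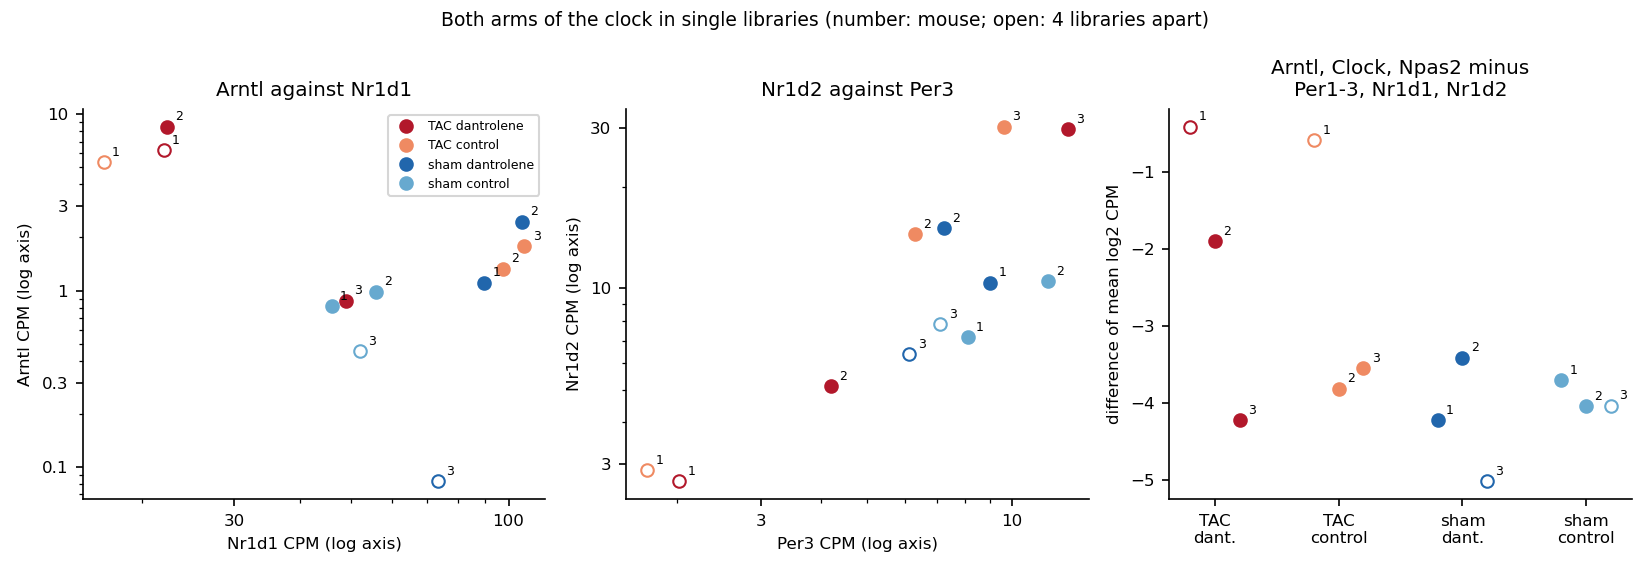
Left, Arntl against Nr1d1, and middle, Nr1d2 against Per3, in CPM on log axes with 1 point per library. Right, the difference of mean log2 CPM between both arms of the loop in each library. TAC dantrolene 1 and 2 and TAC control 1 sit at high Arntl and low Nr1d1, and open points are the 4 libraries that stood apart.

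Pearson correlations of log2 CPM over the 12 libraries, which share depth and the first component, describe how the genes went together. Arntl and Nr1d1 had -0.56, and -0.42 over the 8 libraries without the 4. Over 12 libraries Per2 and Per3 were the closest pair (0.90, and 0.47 over 8), followed by Per3 with Nr1d2 (0.84 and 0.63) and Per2 with Nr1d2 (0.83 and 0.60). After each group mean was subtracted Per3 with Nr1d2 was the closest (0.97), with 0.93 for Per2 and Per3. Over 8 libraries Npas2 with Per1 was the closest (0.91). Npas2 ran against Per2 (-0.83 and -0.70) and Nr1d1 (-0.83 and -0.67). Cry2 and Per1 had 0.80 and 0.81. Some pairs of Per1 turned their sign: -0.26 and 0.91 with Npas2, 0.59 and -0.45 with Per2, 0.20 and -0.79 with Nr1d1, and 0.20 and -0.72 with Nr1d2. Pairs of Cry2 turned too: -0.27 and 0.61 with Npas2, 0.64 and -0.21 with Per2, 0.23 and -0.58 with Nr1d1, and 0.26 and -0.71 with Nr1d2. Of all genes tested that are not among the 10, Frmd5 was most like Arntl (0.92 over 12 libraries, 0.75 over 8), followed by Igsf9b, Dtx4, BC005624 and Leo1, and Zfp607 was most opposite (-0.91 and -0.82), followed by Angptl2, Prickle1, Baalc and Gemin8. Rragb was most like Nr1d1 (0.93 and 0.91), followed by Rpp40, Rfesd, Fas and Phf11d, and B330016D10Rik was most opposite (-0.94 and -0.92), followed by Capn12, Nkx2-5, Tmem171 and Prr3. These genes are the ends of a ranking of all genes tested. An absolute correlation over 0.8 was found for 0.187% of genes with Arntl and 0.862% with Nr1d1. Some had few reads: Igsf9b (0.0413 to 0.884 CPM), Baalc (0.0631 to 0.496), Zfp607 (0.222 to 0.827), Rragb (0.568 to 1.97) and Capn12 (0.684 to 2.26). Dbp had -0.86 with Arntl and 0.87 with Nr1d1.

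Between TAC control and sham control, 0 of the 10 genes and 0 of 14965 genes tested (0%) passed edgeR at an adjusted p under 0.05, and the smallest adjusted p of any gene was 0.11. At an unadjusted p under 0.05 there were 3 of the 10 (Clock higher, Per1 and Cry2 lower), against 7.93% of all genes. Groups did not overlap for Arntl and Clock, all higher in TAC control, where 7.54% of all genes were, and for Cry2 and Per1, all lower, where 9.82% were. The 10 genes had 6 positive and 4 negative fold changes with a median of 0.32 on the log2 scale, beside 0.10 over all genes. DESeq2 called 0 of the 10 and 79 genes (0.533% of all), and limma voom with sample quality weights called 4 of the 10 and 3262 genes (21.8%). Those 4 were Clock (1.04, adjusted p = 0.0122), Npas2 (-1.23, adjusted p = 0.0131), Per1 (-1.57, adjusted p = 0.00535) and Nr1d1 (0.87, adjusted p = 0.0262). The sample quality weights of TAC control mice 1 to 3 were 0.233, 6.56 and 0.676, so these calls lean on TAC control 2. As a check of the operation, Acta1, a fetal actin gene of the overloaded heart, had a log2 fold change of 3.09 ± 0.49 (edgeR unadjusted p = 3.59e-05, adjusted p = 0.179). The other check genes had 2.30 ± 0.57 (Nppa), 3.185 ± 0.713 (Postn) and 0.05 ± 0.38 (Ryr2). Acta1 was at 887.1, 3707.6 and 2614.5 CPM in TAC control mice 1 to 3 and 268.2, 266.9 and 314.2 CPM in sham control mice. In TAC dantrolene mice it was at 229.8, 312.1 and 146.4 CPM, so the check covers TAC control only.

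Dantrolene was compared with control in each surgery arm, and the comparisons of TAC control share libraries with the one above. In TAC hearts 0 of the 10 genes and 0% of all genes passed edgeR, and 1 of the 10 (Nr1d1, lower) had an unadjusted p under 0.05, against 3.25% of all genes. No clock gene separated the groups without overlap, where 2.68% of all genes were all higher and 2.08% all lower. DESeq2 called 0 of the 10 and 12 genes (0.0809%), and limma voom 0 of the 10 and 65 genes (0.434%). In sham hearts 0 of the 10 and 0% of all genes passed, and 0 of the 10 had an unadjusted p under 0.05, against 0.715% of all genes. With the replicate number as a block in these 6 libraries Nr1d1 had 0.80 ± 0.15 (unadjusted p = 0.000324, adjusted p = 0.192), and without the block 0.82 ± 0.20 (unadjusted p = 0.00361, adjusted p = 1). Nr1d1 alone did not overlap, all higher in sham dantrolene, where 2.99% of all genes were and 4.38% were all lower. DESeq2 and limma voom called 0 of the 10 and 0 genes. The intervals were wide: the 95% interval of Arntl for TAC dantrolene over TAC control ran from -1.10 to 2.90 on the log2 scale.

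Between TAC dantrolene and sham dantrolene, 0 of the 10 and 0% of all genes passed edgeR. Arntl (2.09 ± 0.96, unadjusted p = 0.0491) and Nr1d1 (-1.53 ± 0.54, unadjusted p = 0.0146) had an unadjusted p under 0.05, both with adjusted p = 1, against 1.71% of all genes. Without the 4 libraries they were 1.34 (unadjusted p = 0.112) and -1.49 (unadjusted p = 0.000836), and with 1 library left out Arntl ranged between 1.53 and 3.09. Of the 10 only Nr1d1 did not overlap, all lower, where 1.96% of all genes were, and 2.9% of all genes were all higher. For the interaction Nr1d1 was the 1 clock gene with an unadjusted p under 0.05, against 2.82% of all genes. For TAC over sham averaged over drug Arntl and Clock were the 2, against 6.78%, and for dantrolene over control averaged over surgery there were 0, against 1.04%. In each of these 4 comparisons DESeq2 called 0 of the 10. It called 0.027% of all genes for TAC dantrolene over sham dantrolene, 0.00674% for the interaction, 0.351% for TAC over sham and 0.00674% for dantrolene over control. Limma voom called Nr1d1 in the interaction and 0 of the 10 in the others, where it called 0% of all genes for TAC dantrolene over sham dantrolene, 2.17% for TAC over sham and 0.00668% for dantrolene over control. For the interaction, for TAC over sham and for dantrolene over control edgeR called 0 of the 10 and 0% of all genes after adjustment.

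**Figure D4:**
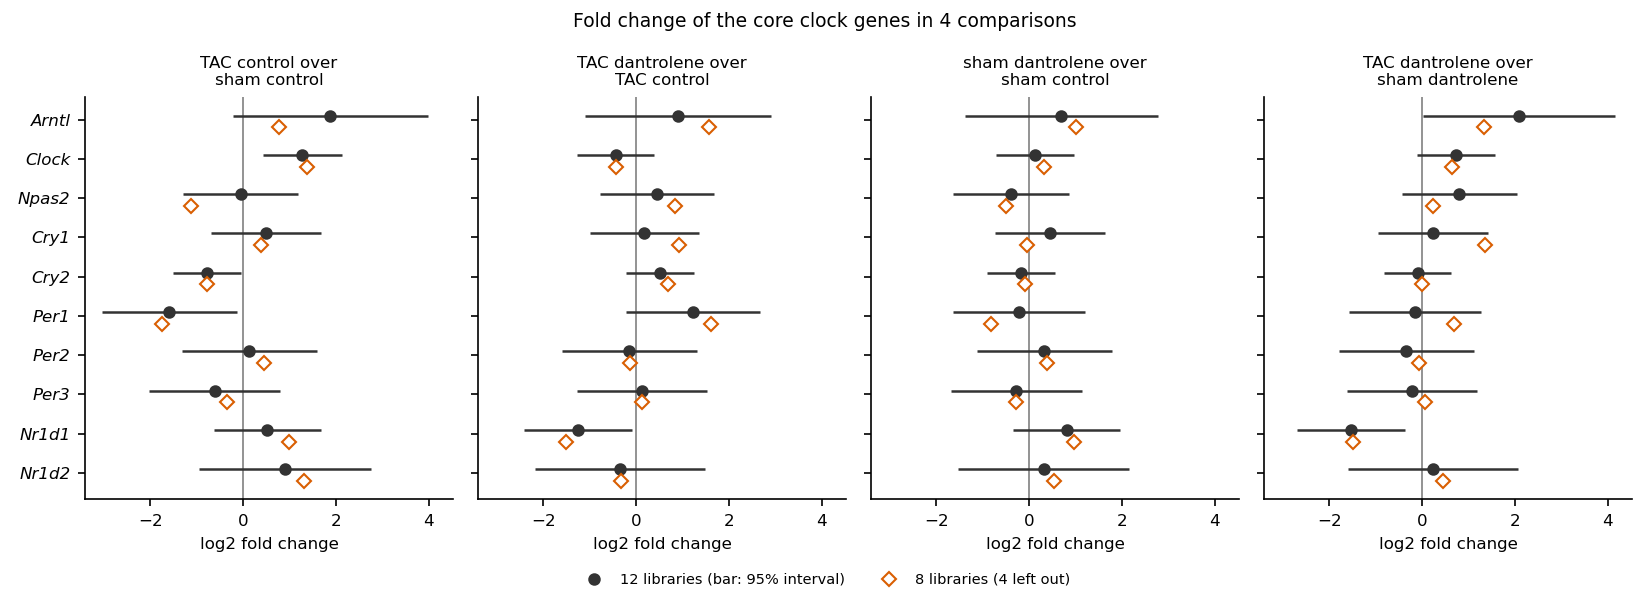
Log2 fold change of each core clock gene in 4 comparisons of 2 groups, from edgeR. Black points are the fit of 12 libraries with 95% intervals, and open diamonds are the fit of 8 libraries without the 4 apart. Clock lay above 0 and Per1 and Cry2 below 0 for TAC control over sham control, and Nr1d1 below 0 for TAC dantrolene over TAC control.

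Other genes of the clock were read from lists. Of the loop factors, such as Rora, Nfil3, Bhlhe40 and Ciart, 9 of 9 were tested and 0 passed edgeR in any of the 7 comparisons. Rora, an activator of Arntl, had the smallest p among them for TAC control over sham control (1.02 ± 0.41, edgeR unadjusted p = 0.0283, adjusted p = 0.58). Bhlhe40, a repressor of the loop, had -0.92 ± 0.48 (adjusted p = 0.663). With dantrolene over control in TAC hearts Ciart had -1.22 ± 0.76 and Nfil3 0.84 ± 0.60 (adjusted p = 1 for both). The median log2 fold change of the list for TAC control over sham control was 0.07, beside 0.10 over all genes. The output factors Dbp, Tef and Hlf, transcription factors that bind the D-box, all had negative fold changes for TAC control over sham control, with a median of -0.36. Tef was measured at 80.1, 137.3 and 201.1 CPM in TAC dantrolene mice, 88.6, 131.8 and 100.8 CPM in TAC control mice, 222.4, 152.7 and 176.0 CPM in sham dantrolene mice and 206.9, 234.7 and 208.1 CPM in sham control mice. All its TAC control values lay below all its sham control values, with a log2 fold change of -1.02 ± 0.33 (edgeR unadjusted p = 0.00912, adjusted p = 0.512). Hlf had -0.36 ± 0.52 (adjusted p = 0.874). With dantrolene over control in TAC hearts Tef had 0.38 ± 0.33 and Dbp -0.998 ± 0.868 (adjusted p = 1 for both). None of the 3 passed edgeR in any of the 7 comparisons.

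Of the kinases, ligases and partners of PER and CRY, 12 of 13 were tested (Fbxl21 was not) and 0 passed edgeR in any of the 7 comparisons. For TAC control over sham control 5 had positive and 7 negative fold changes, with a median of -0.27. Usp2, a deubiquitinase that cycles in many tissues, had -0.92 ± 0.40 (edgeR unadjusted p = 0.0392, adjusted p = 0.607). Timeless had 1.10 ± 0.49 (unadjusted p = 0.0441, adjusted p = 0.617). With dantrolene over control in TAC hearts 10 of the 12 were positive, with a median of 0.27 beside 0.02 over all genes, and Timeless had -1.02 ± 0.49 and Fbxw11 0.56 ± 0.31 (adjusted p = 1 for both). Of the clock-controlled genes of the heart 8 of 8 were tested and 0 passed edgeR. Klf15, a factor of nutrient metabolism that follows the clock in mouse heart, was measured at 25.5, 41.4 and 54.4 CPM in TAC dantrolene mice, 19.2, 22.7 and 28.1 CPM in TAC control mice, 22.9, 32.0 and 36.5 CPM in sham dantrolene mice and 38.7, 63.7 and 48.9 CPM in sham control mice. Its TAC control values all lay below its sham control values (-1.11 ± 0.32, edgeR unadjusted p = 0.0044, adjusted p = 0.474). Dgat2, a triglyceride synthesis gene, had -0.83 ± 0.28 (adjusted p = 0.517). With dantrolene over control in TAC hearts Klf15 had 0.79 ± 0.32 and Wee1 0.81 ± 0.50 (adjusted p = 1 for both). The interaction of Klf15 was 1.52 ± 0.45 (edgeR unadjusted p = 0.00525, adjusted p = 1), opposite in sign to that of Nr1d1. It held a lower level with dantrolene in sham hearts (-0.73 ± 0.32) as well as the higher level in TAC hearts.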

How the data were processed

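Left ventricle poly(A) RNA of 12 mice was sequenced, per the labels' protocols, with a directional library. Per the submitters' processing notes bcl2fastq, TopHat2, edgeR and the build GRCm38 were used, while the sources used here do not give their roles or the strand setting. Counts as deposited by the authors are whole reads per gene, not normalised, for 25319 genes. The authors also deposited FPKM, which divides by gene length and library total, for 25258 of these genes, used here only to compare levels between genes. Coordinates are from GENCODE vM21 on GRCm38.

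Counts were analysed with edgeR 4.0.16 in R 4.3.3. filterByExpr (minimum count 10, minimum total 15) kept 14965 genes and took out 0.0418% of counts. Libraries were scaled by TMM, and a robust quasi-likelihood fit of 4 group means (8 residual degrees of freedom) gave 7 two-sided comparisons, with Benjamini-Hochberg adjustment over all genes tested and a threshold of 0.05. CPM are these scaled counts, and log2 CPM used a prior count of 2. The fit was tested on simulated data. Alternatives were DESeq2 1.42.0, limma 3.58.1 voom with sample quality weights, RLE scaling, other filters, only the groups compared, a replicate block, leaving out each library, and leaving out the 4 libraries apart. Samples were grouped by their titles.

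Every clock gene of the rule was named. For TAC control over sham control and TAC dantrolene over TAC control the 2 genes with the smallest p in each other list were named. The other comparisons of these lists are given by counts, with Klf15 added for the interaction and for sham dantrolene over sham control. By likeness the 5 highest and 5 lowest genes for Arntl and Nr1d1 were named. The genes, lists and tests were chosen with earlier results of these data known. Dbp, Thra, Camta1, Acta1, Nppa, Postn and Ryr2 are named beside the rule.

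Same-numbered dantrolene and control mice deviated together across genes: their correlations were 0.556, 0.300 and 0.613 within TAC and 0.465, 0.366 and 0.672 within sham, all over 0.1, which met the criterion for pairing the mice by the titles' numbers in the drug comparisons. Some mice of different numbers also exceeded it: sham dantrolene 1 with sham control 2 (0.375), sham dantrolene 2 with sham control 1 (0.305) and TAC dantrolene 3 with TAC control 2 (0.221). Between the surgery arms same-numbered mice had -0.294, 0.283 and -0.304 without drug and -0.377, 0.270 and -0.313 with it, and did not all meet the criterion. The libraries apart were number 1 in both TAC groups and number 3 in both sham groups, so 0.556 and 0.672 compare libraries apart. Such libraries also went together under unlike numbers: TAC control 1 with sham control 3 (0.453) and TAC dantrolene 1 with sham dantrolene 3 (0.5). The check therefore cannot show that mice were paired.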

Additional observations from a re-analysis of the deposited data

How the results depend on the processing

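Of 840 log2 fold changes of clock genes with 1 library left out 772 kept their sign and side of the threshold, and 68, which had missed the threshold, turned their sign. Of 570 such values under other settings 538 kept both, 8 newly passed and 24 turned their sign. The cause was not tested. Leaving out 1 library, edgeR called 0 to 15 genes for TAC control over sham control (15 without TAC control 1), 0 to 1 for TAC dantrolene over TAC control, 0 to 1 for TAC over sham averaged over drug, and 0 in the other 4 comparisons, and 0 clock genes throughout. For TAC control over sham control DESeq2 called 79 genes, limma voom 3262 genes and 4 clock genes, edgeR with no filter 3 genes, with only the groups compared 1 gene, and without the 4 libraries 484 genes and 1 clock gene. Dantrolene over control in TAC hearts gave 12 with DESeq2, 65 with limma voom, 1 with no filter, and 478 genes and 2 clock genes without the 4 libraries. DESeq2 called 4 genes for TAC dantrolene over sham dantrolene. For the interaction the counts were 1 with DESeq2, 68 genes and 1 clock gene with limma voom, and 7 without the 4 libraries. For TAC over sham averaged over drug they were 52 with DESeq2, 324 with limma voom, 4 with no filter and 67 without the 4 libraries, and for dantrolene over control averaged over surgery 1 with DESeq2 and 1 with limma voom. With limma voom and sample quality weights the sign turned for TAC dantrolene over TAC control, Per3 (-0.085), and for TAC dantrolene over sham dantrolene, Per1 (0.31) and Nr1d2 (-0.38), and for TAC over sham averaged over drug, Npas2 (-0.42) and Per2 (0.14), and for dantrolene over control averaged over surgery, Clock (0.055) and Per2 (-0.071), and for interaction of surgery and drug, Cry1 (0.89), and for sham dantrolene over sham control, Cry1 (-0.10). With no filter on low counts the sign turned for dantrolene over control averaged over surgery, Nr1d2 (0.007). Without the 4 libraries the sign turned for TAC dantrolene over sham dantrolene, Cry2 (0.006), Per1 (0.70) and Per3 (0.066), and for TAC over sham averaged over drug, Npas2 (-0.45) and Per2 (0.20), and for dantrolene over control averaged over surgery, Nr1d2 (0.11), and for interaction of surgery and drug, Cry1 (0.96), and for sham dantrolene over sham control, Cry1 (-0.041). Without the 4 libraries the likeness to Arntl was 0.30 for Npas2 (0.61 with them), 0.49 for Cry1 (-0.10 with them) and 0.26 for Per1 (-0.44 with them). 

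With the replicate number as a block, which pairs same-numbered mice in the drug comparisons, edgeR called 0 genes and 0 clock genes in every comparison. The block changed no adjusted call. In the edgeR fit of the groups compared with the block, Nr1d1 had an unadjusted p of 0.000324 (adjusted p = 0.192) for sham dantrolene over sham control and of 0.0518 (adjusted p = 0.688) for TAC dantrolene over TAC control. With the replicate block in the fit of 12 libraries the sign turned for TAC control over sham control, Per2 (-0.087), and for TAC dantrolene over sham dantrolene, Nr1d2 (-0.48), and for TAC over sham averaged over drug, Nr1d2 (-0.043). With the replicate block in the fit of the groups compared the sign turned for TAC control over sham control, Per2 (-0.18), and for TAC dantrolene over TAC control, Per3 (-0.024), and for TAC dantrolene over sham dantrolene, Nr1d2 (-0.62).

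With 1 library left out, the log2 fold changes whose sign turned had these ranges. For interaction of surgery and drug they were -0.35 to 1.21 for Arntl, -0.68 to 0.63 for Cry1, -2.33 to 0.21 for Nr1d2 and -0.64 to 0.96 for Per3. For sham dantrolene over sham control they were -0.31 to 1.23 for Arntl, -0.28 to 0.31 for Clock, -0.44 to 0.84 for Cry1, -0.026 to 0.58 for Nr1d2 and -0.60 to 0.19 for Per1. For TAC dantrolene over TAC control they were -0.04 to 0.66 for Cry1, -0.021 to 1.31 for Npas2, -2.02 to 0.53 for Nr1d2, -0.83 to 0.30 for Per2 and -0.92 to 0.68 for Per3. For TAC dantrolene over sham dantrolene they were -0.088 to 1.13 for Cry1, -0.37 to 0.16 for Cry2, -1.43 to 0.68 for Nr1d2, -1.17 to 0.31 for Per1, -1.03 to 0.09 for Per2 and -1.25 to 0.17 for Per3. For dantrolene over control averaged over surgery they were -0.13 to 0.55 for Cry1, -0.21 to 0.46 for Npas2, -0.85 to 0.42 for Nr1d2, -0.004 to 0.75 for Per1, -0.26 to 0.32 for Per2 and -0.60 to 0.20 for Per3. For TAC control over sham control they were -0.90 to 0.32 for Npas2 and -0.29 to 0.59 for Per2. For TAC over sham averaged over drug they were -0.049 to 0.56 for Npas2, -0.26 to 0.82 for Nr1d2 and -0.45 to 0.13 for Per2. 

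The depth limits Arntl in sham dantrolene 3 (2 reads) and Npas2 (18 to 70 reads).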
